A study of Caenorhabditis elegans with 2 samples.

Results

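The 9 genes K12H4.5, T13C5.6, mlcd-1, idhg-1, atx-2, ecps-1, uncp-18, npp-6 and spd-5 lie at 6 sites that are among the strongest promoter sites of a chromatin immunoprecipitation with sequencing (ChIP-seq) experiment in Caenorhabditis elegans embryos. In ChIP-seq, DNA fragments bound by a protein are recovered with an antibody and sequenced, and stretches with many fragments are called as peaks. The genes were chosen by the signal of these sites: their promoter windows, from 1000 bp upstream to 200 bp downstream of a transcript's 5′ end, hold the strongest sites of the authors' conservative peak list among those over 200 bp from any tRNA, snoRNA, snRNA or miRNA gene (called small RNA genes here). The signal therefore describes the choice, and no test was run on it. The 9 genes are 9 of 19865 protein-coding genes on the nuclear chromosomes, of which 2.99% had a site in the window. Their 6 sites are 6 of 407 promoter sites away from small RNA genes and of 1266 sites in all, and they rank 1 to 5 and 7 among the 407.

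The samples were 2 biological replicates of whole mid-embryos, 3.5 hours old and obtained by egg bleaching, in 1 group with no control group used here. The strain OP787 carries the transgene wgIs787, in which T27A8.2 is joined to TY1, EGFP and 3xFLAG tags, together with unc-119(+) on an unc-119 (tm4063) background. The labels name tab-1, a homeobox gene, as the target, while the transgene carries T27A8.2. These are 2 genes in the annotation, tab-1 on chromosome II and T27A8.2 on chromosome X, and the samples are named by their label, labelled tab-1. Whole embryos hold many cell types, and the lists do not tell which of them gave a signal. The antibody was against GFP, and chromatin was sonicated to 200 to 800 bp. The deposited signal value of a peak has no stated scale, and the read depth behind it is unknown.

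A promoter is the stretch around the start of a gene where transcription factors and RNA polymerase assemble. In C. elegans, genes that point away from each other often share the stretch between them, so that a single site can lie in the promoter windows of a pair of genes. Many transcripts are also trans-spliced, which removes the original start, so an annotated 5′ end can lie downstream of where transcription begins. Among the genes described here are those of a nuclear pore protein and of a centrosome protein, and their known roles are given where each is described.

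The genomic sequence at 5 of the 6 sites is shown. A short pattern, described further on, is visible in the letters at 3 of them: mlcd-1/idhg-1, atx-2/ecps-1 and uncp-18. The npp-6/spd-5 site, which is not shown, also holds it. A summit is the position of the highest signal in a peak. Each sequence is the reference genome WBcel235, forward strand, with 100 bases to either side of the summit. They span chrIII:8043878-8044078 for K12H4.5, chrX:6207764-6207964 for T13C5.6, chrIII:4568630-4568830 for mlcd-1 and idhg-1, chrIII:10461225-10461425 for atx-2 and ecps-1, and chrIV:390401-390601 for uncp-18. Capitals mark GAGAGA on either strand for K12H4.5 and a word like the B box of tRNA genes for T13C5.6. In the other 3 they mark GCGGC followed by any 4 bases and TTGC, on either strand, and each further TTGC spaced 22 or 23 bases along the same strand. On the reverse strand GAGAGA reads TCTCTC and TTGC reads GCAA.
K12H4.5: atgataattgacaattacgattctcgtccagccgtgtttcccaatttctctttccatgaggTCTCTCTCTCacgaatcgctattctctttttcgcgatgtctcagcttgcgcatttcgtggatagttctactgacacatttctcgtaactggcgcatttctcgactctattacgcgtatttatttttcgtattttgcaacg
T13C5.6: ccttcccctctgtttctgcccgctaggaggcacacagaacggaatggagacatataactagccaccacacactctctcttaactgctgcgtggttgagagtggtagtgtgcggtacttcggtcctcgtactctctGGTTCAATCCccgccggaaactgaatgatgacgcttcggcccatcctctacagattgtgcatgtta
mlcd-1/idhg-1: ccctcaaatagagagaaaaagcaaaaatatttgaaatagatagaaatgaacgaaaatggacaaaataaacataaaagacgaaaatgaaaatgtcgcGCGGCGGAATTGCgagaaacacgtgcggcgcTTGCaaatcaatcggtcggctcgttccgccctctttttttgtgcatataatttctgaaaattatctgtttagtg
atx-2/ecps-1: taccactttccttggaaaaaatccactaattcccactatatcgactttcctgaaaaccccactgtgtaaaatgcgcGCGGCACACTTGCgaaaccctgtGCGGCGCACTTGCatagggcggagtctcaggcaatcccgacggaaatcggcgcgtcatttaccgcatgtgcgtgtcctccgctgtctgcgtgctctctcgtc
uncp-18: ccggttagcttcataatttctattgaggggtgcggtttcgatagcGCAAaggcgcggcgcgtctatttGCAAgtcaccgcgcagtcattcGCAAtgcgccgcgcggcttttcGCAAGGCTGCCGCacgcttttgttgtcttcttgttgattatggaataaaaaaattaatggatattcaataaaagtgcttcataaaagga

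The metabolic pair mlcd-1 and idhg-1 shared 1 site. The gene mlcd-1 encodes mitochondrial malonyl-CoA decarboxylase, which turns malonyl-CoA, a building block of fatty acids, into acetyl-CoA. The gene idhg-1 encodes a subunit of the mitochondrial NAD-dependent isocitrate dehydrogenase of the tricarboxylic acid cycle. Their site spanned 4568638 to 4568855 on chromosome III, 218 bp, with its summit at 4568730 between the genes. Its signal was 211 in replicate 1 and 276 in replicate 2, and 491 in the joint list. The summit lay 67 bp upstream of the outer 5′ end of idhg-1, which the peak itself covered, and 283 bp upstream of an inner one. The 5′ ends of mlcd-1 were farther, with the summit 600 and 613 bp upstream of them, and the genes point away from each other.

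The site of atx-2 and ecps-1 spanned 10461209 to 10461429 on chromosome III, 221 bp, with its summit at 10461325. The gene atx-2 encodes the worm ataxin-2, an RNA-associated protein that regulates translation, and ecps-1 encodes a protein with the N-terminal domain of the proteasome component Ecm29, which in yeast holds parts of the proteasome together. The signal was 232 in replicate 1 and 262 in replicate 2, and 482 in the joint list. The summit lay 64 bp upstream of the outermost 5′ end of atx-2, which the peak covered, and 303 and 388 bp upstream of inner ones. A further transcript of atx-2 starts 3131 bp downstream of the summit. The only 5′ end of ecps-1 was on the other side, with the summit 774 bp upstream of it.

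The uncp-18 site spanned 390394 to 390613 on chromosome IV, 220 bp, with its summit at 390501. The gene encodes a member of the Sec1/Munc18 family, whose proteins bind syntaxins and take part in vesicle fusion. The signal was 150 in replicate 1 and 249 in replicate 2, and 411 in the joint list, so that replicate 1 stood at 0.604 of replicate 2, the lowest such ratio of the 6 sites. The summit lay 59 bp upstream of the 5′ end of uncp-18. It also lay 33 bp upstream of the 5′ end of ears-2, a gene on the other strand for a mitochondrial glutamyl-tRNA synthetase that is not among the 9. The peak covered both 5′ ends, so the site belongs to ears-2 by position as much as to uncp-18.

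The site of npp-6 and spd-5 spanned 5176350 to 5176519 on chromosome I, 170 bp, with its summit at 5176417. The gene npp-6 encodes the worm counterpart of the vertebrate nucleoporin Nup160, part of the scaffold of the nuclear pore, and spd-5 encodes a scaffold protein of the material around the centrioles. The signal was 170 in replicate 1 and 157 in replicate 2, and 335 in the joint list. This was the single site of the 6 with the higher value in replicate 1. The summit lay 412, 413 and 419 bp upstream of 3 annotated 5′ ends of npp-6. It lay inside spd-5, in an intron 237 bp downstream of the outermost 5′ end of that gene, and it entered the spd-5 window through a shorter transcript that starts 709 bp from the summit.

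The remaining 2 sites each lay in the window of 1 gene of little known function. The K12H4.5 site had the highest signal of the 407, 240 in replicate 1 and 309 in replicate 2, and 529 in the joint list. It spanned 8043866 to 8044079 on chromosome III, 214 bp, with its summit at 8043978, between genes and 509 bp upstream of K12H4.5, which the RefSeq annotation describes as an uncharacterized protein. The next gene on the same strand, spcs-3, encodes a signal peptidase complex subunit, and its 5′ end lay 1039 bp downstream of the summit, just outside the window. On the other strand the 5′ end of K12H4.6 lay 1103 bp away, also outside.

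The T13C5.6 site spanned 6207735 to 6207998 on chromosome X, 264 bp and the widest of the 6, with its summit at 6207864. The RefSeq annotation gives T13C5.6 a domain of type 2 phosphatidic acid phosphatases and haloperoxidases. The signal was 233 in replicate 1 and 271 in replicate 2, and 505 in the joint list. The summit lay 177 bp upstream of T13C5.6 on the reverse strand, and 29 bp inside C14F11.14, a non-coding RNA gene of 147 bp on the forward strand whose kind the annotation does not give. C14F11.14 is not among the 4 kinds that the choice of sites avoided. Among the other promoter sites 37 (9.23%) had a summit inside a non-coding RNA gene outside these 4 kinds, piRNA genes left out.

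**Figure D1:**
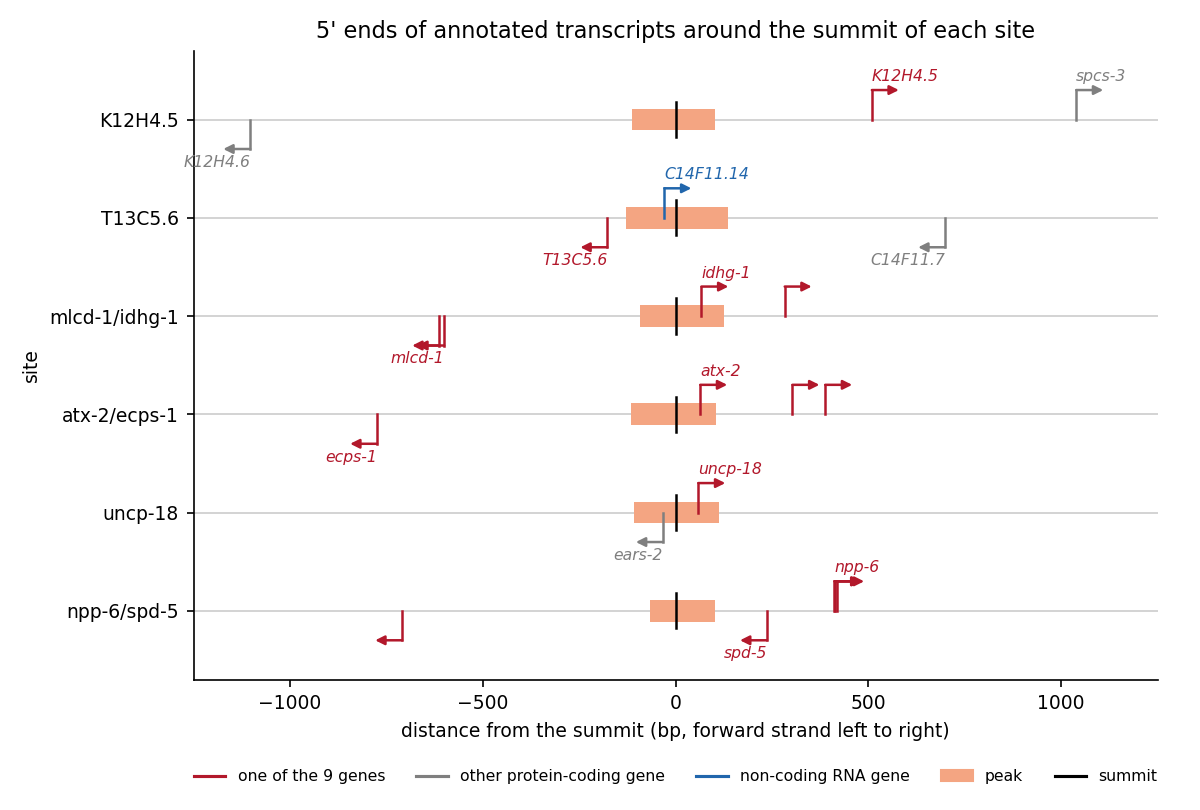
Annotated transcript 5′ ends around the summit at each of the 6 sites, as bent arrows that point in the direction of transcription, above the line for the forward strand and below it for the reverse strand. Bars show the peaks. The peaks of mlcd-1/idhg-1, atx-2/ecps-1 and uncp-18 cover a 5′ end, and the other 3 do not cover one of a protein-coding gene.

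Both replicates placed the 6 sites near the top of the 407, as the choice by joint signal entails. The replicate values of K12H4.5, T13C5.6, mlcd-1/idhg-1, atx-2/ecps-1 and uncp-18 overlapped as ranges, with the higher value in replicate 2 at all 5. Within each replicate K12H4.5 was the highest of these 5 and uncp-18 the lowest. The order of T13C5.6, mlcd-1/idhg-1 and atx-2/ecps-1 between them differed between the replicates. Both values of npp-6/spd-5 lay below both values of the 4 strongest sites and inside the range of uncp-18. By replicate 1 alone the ranks were 1 for K12H4.5, 2 for T13C5.6, 4 for mlcd-1/idhg-1, 3 for atx-2/ecps-1, 8 for uncp-18 and 5 for npp-6/spd-5. By replicate 2 alone they were 1, 3, 2, 4, 5 and 15 in the same order of sites. The values used as replicate 1 and replicate 2 come from columns of the joint ranked list, and they equalled the peak values in the replicate's own ranked list at 1254 of 1254 sites for replicate 1 and at 1256 of 1257 for replicate 2.

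**Figure D2:**
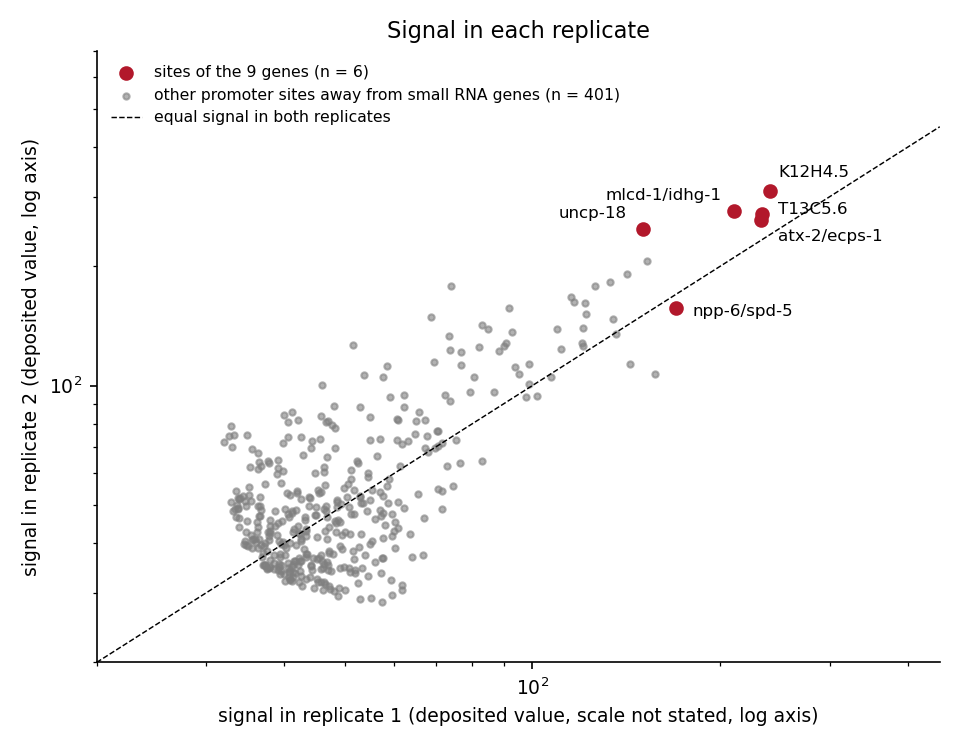
Signal in replicate 1 against signal in replicate 2 on log axes, for the 6 sites of the 9 genes and the other promoter sites away from small RNA genes. Each point is a site, and the dashed line marks equal values. The 6 sites sit at the upper right, with uncp-18 farthest above the line and npp-6/spd-5 just below it.

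The median signal of the 6 sites was 222 in replicate 1 and 266 in replicate 2, against 46.2 and 47.3 for the others of the 407. Replicate 1 over replicate 2 had a median of 0.819 at the 6 sites, 0.966 at the other promoter sites and 0.808 at the 331 small RNA gene sites. At the 6 other promoter sites nearest in rank this ratio ranged from 0.688 at plrg-1 to 1.01 at K01G5.10 with tasp-1. All 6 sites of the 9 genes were in both replicates' own thresholded lists, against 19.9% of the 407. That count follows from the signal that chose them. Each replicate's own summit lay within 10 bp of the joint summit at all 6. The peaks of the 6 sites were 170 to 264 bp wide, with a median of 219 bp. Those of the 6 other promoter sites nearest in rank were 148 to 204 bp wide, and 87.0% of all the other promoter sites had the same width, 304 bp. Around the 6 summits the strongest other ranked candidate within 1000 bp had a signal between 19 and 53.8, and around other promoter sites its median was 37.9.

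Taking only 5′ ends whose window holds the summit, the 6 summits lay upstream of the nearest one, as did 360 of the other promoter sites, while 41 lay downstream. The median distance to that end was 122 bp for the 6 and 220 bp for the others, and 4 of 6 lay within 200 bp, against 185 of the others (46.1%). The order of these medians depended on the gene models: with the longest transcript of each gene alone they were 240 bp for the 6 and 218 bp for the others, and with windows reaching 500 bp upstream 67 bp for the 5 sites still in a window and 167 bp for the others. The windows that held the summit belonged to genes on both strands at 4 of the 6 sites, those of mlcd-1/idhg-1, atx-2/ecps-1, uncp-18 with ears-2, and npp-6/spd-5, where the share over all 407 was 23.3%. With windows reaching 500 bp upstream this held for 1 of 5 sites, against 20.9% of the others, and with the longest transcript alone for 3 of 6, against 25.7%. With 6 sites, this difference in shares was not tested. Among the other promoter sites, those in windows of both strands had a median signal of 113, and those in the window of a single gene 89.5.

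Base content varied among the 6 sites. Within 100 bp of the summit, atx-2/ecps-1 held 54.2% G and C, T13C5.6 52.7% and npp-6/spd-5 49.8%. The uncp-18 site held 46.3%, K12H4.5 41.8% and mlcd-1/idhg-1 37.8%. The median of the 6 was 48.0%, and that of the other promoter sites 48.3%, with quartiles of 42.8% and 53.2%. Windows of the same width 500 bp to either side held 35.6% to 41.0% at the 6 sites, so each summit was richer in G and C than its flanks. That excess was largest at T13C5.6 (15.7 percentage points) and atx-2/ecps-1 (15.4 points), intermediate at npp-6/spd-5 (8.71), uncp-18 (7.96) and K12H4.5 (4.73), and smallest at mlcd-1/idhg-1 (2.24). Its median was 8.33 points for the 6 and 11.4 for the others. With windows reaching 200 bp in place of 100 bp to either side, the median excess of the 6 was 1.25 points. No such value is given for the other promoter sites. In 51 bp windows their median also fell, from 54.9% at the summit to 37.3% at 200 bp to either side.

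**Figure D3:**
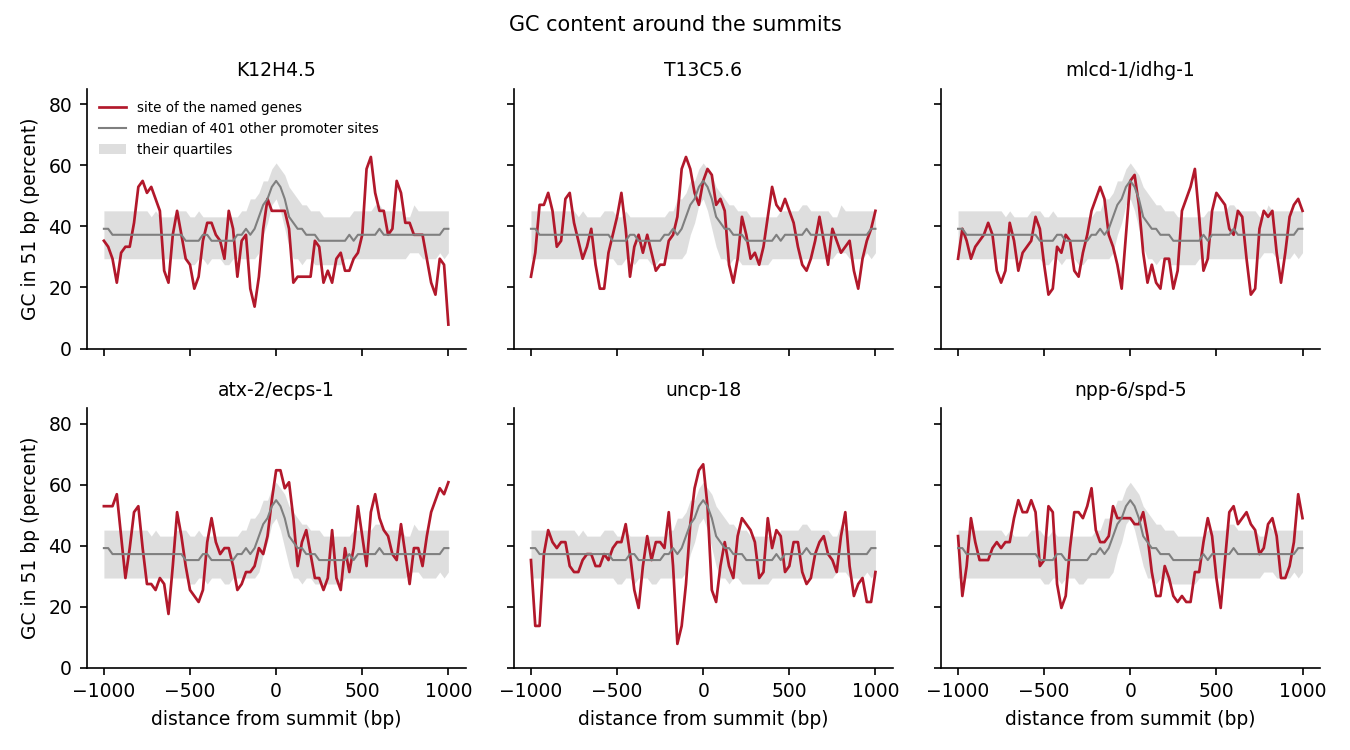
G and C content in 51 bp windows from 1000 bp before to 1000 bp after the summit on the forward strand, one panel for each of the 6 sites. Red lines are the sites of the named genes, and the grey line and band are the median and quartiles of the other promoter sites. The uncp-18 and atx-2/ecps-1 summits carry a narrow peak above the upper quartile of the others, while K12H4.5 and npp-6/spd-5 stay below their median at the summit.

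Of 12 short words searched on both strands, GAGAGA was the most widespread at the 6 sites. It occurred at K12H4.5, T13C5.6, mlcd-1/idhg-1 and atx-2/ecps-1, 4 of 6, against 25.8% of the 407. At K12H4.5 the 3 matches overlap in a single run of alternating pyrimidines on the forward strand. GCGCGC occurred at atx-2/ecps-1 only, 1 of 6, against 20.4% of the 407. CCGCCC occurred at mlcd-1/idhg-1 and atx-2/ecps-1, against 21.6% of the 407. CACGTG, the E-box of basic helix-loop-helix factors, occurred at mlcd-1/idhg-1, against 5.16% of the 407. TTTCAG was at 2 sites, against 15.2%, and AAAAAA at 3, against 42.3%. TAATTA, the core of many homeodomain sites, was at none of the 6, against 4.18% of the 407. The same held for TATTAA (6.39% of the 407) together with TATAAA (8.85%), and for GATAAG (3.69%), which is bound by GATA factors. It also held for GTTCGA (6.88%) from the tRNA gene promoter and for TTCCCGC (4.91%), a motif of E2F factors. The absence of these letters from these windows says nothing of the factors. The word GGTTC followed by 1 base of any kind, A, 2 bases of any kind and C, which matches the B box of tRNA promoters and was chosen after the sequences were seen, occurred at T13C5.6 alone, 1 of 6 against 2.95% of the 407. It lay 35 to 44 bp to the right of the summit, inside C14F11.14, and the same word occurred at 67.1% of the small RNA gene sites.

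The 4 sites that pair genes on both strands, with windows reaching 1000 bp upstream, shared a pattern that the 12 words do not hold. It reads GCGGC, any 4 bases, then TTGC, and is called the gapped word here. Whether the word goes with such pairs was not tested. The word was noticed in the sequences of these sites, so its count at them is a description. It occurred once at mlcd-1/idhg-1, 4 bp before to 8 bp after the summit, and 2 times on the same strand at atx-2/ecps-1, at 24 to 12 bp before the summit and from 1 bp before to 11 bp after it. At uncp-18 it lay on the reverse strand, 12 to 24 bp to the right of the summit, and at npp-6/spd-5 34 to 46 bp to the right. K12H4.5 and T13C5.6 lacked it. The count was 4 of 6, and 9.34% over the 407.

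The other sites, which did not prompt the word, held it at 34 promoter sites (8.48%). Windows 500 bp to the side of those summits held it in 1 of 802 (0.125%). It occurred in 7 of 528 sites away from both promoters and small RNA genes (1.33%), and in 0 of 331 small RNA gene sites. If 3 is taken as the largest count that a 0 may stand for, that share could be up to 0.906%. Matches in the other promoter sites had their centre a median of 13 bp from the summit, and 30 of 35 lay within 30 bp of it. At the sites of the 9 genes 4 of 5 matches did. Of the 34 sites, 6 were near-identical to another of the 929 sites away from small RNA genes and the 9 genes, with at most 3 differences in 60 bases around the match, and without them the share was 6.98%. The other promoter sites with the word had a median signal of 166, and those without it 90.8.

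Of the gaps tried, 4 bases was the most frequent. With gaps of 0 to 10 bases between GCGGC and TTGC, a gap of 4 was found at 41 of the 929 sites (4.41%) that lie off small RNA genes and outside the 9 genes and a gap of 3 at 20 (2.15%). A gap of 5 was found at 1, and the remaining gaps at 1 to 6 sites each. In the whole nuclear genome the word had 825 matches, of which 48 (5.82%) lay in one of the 1266 sites, which cover 0.367% of the genome. These 48 include the 5 matches at the sites of the 9 genes, where the word was noticed. Ranked candidates of any strength, which cover 27.4% of it, held 49.7% of the matches.

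The share of sites with the gapped word was higher among stronger sites. With the 6 sites left out, it was 22% for the 50 strongest sites away from small RNA genes, 20% for the next 50 and 6% for the 100 after them. It was 4% for the following 200 and 1.13% for the remaining 529. The bins mix promoter sites with sites away from promoters, which held the word at 8.48% and 1.33%. Near-identical copies were kept in them. How much the mix of sites contributes to the order of the bins was not tested. GCGCGC went the same way in the same bins, less steeply, with 36%, 22%, 18%, 15.5% and 10.2%. The median G and C content did not, at 44.3% in each of the first 2 bins and 48.3% and 50% in the next 2.

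**Figure D4:**
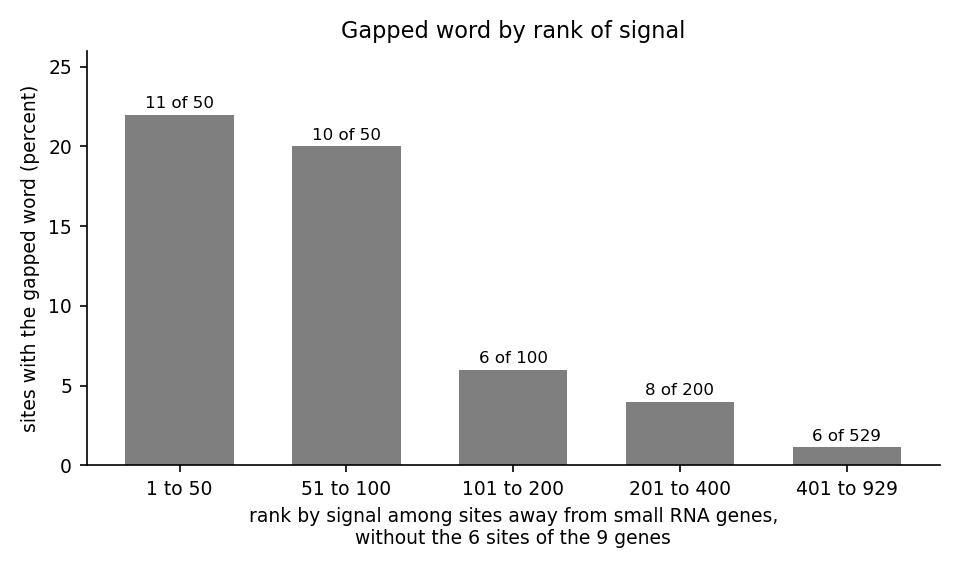
Percentage of sites that hold the gapped word within 100 bp of the summit, by rank of signal among the 929 sites that lie off small RNA genes and outside the 9 genes. Numbers above the bars give sites with the word out of sites in the bin, and the bars stand at 22% for ranks 1 to 50 and at 1.13% for the lowest ranks.

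At each of the 4 sites with the gapped word, a further TTGC lay on the same strand at a distance of 22 or 23 bases, counted from start to start. The distance was 22 at mlcd-1/idhg-1, and 23 at atx-2/ecps-1, where both copies belong to full matches, and at npp-6/spd-5. At uncp-18, 4 copies stood in a row on the reverse strand, at steps of 22 or 23 bases. The pair was present at 4 of 6 sites, against 14.7% of the 407. This spacing too was noticed at these sites, and the remaining sites were then examined at every spacing from 5 to 60 bases. At the other promoter sites, a pair of TTGC was 22 bases apart in 45 (11.2%), 23 apart in 18 (4.49%) and 21 apart in 16 (3.99%). The other spacings, 21 among them, ranged from 0.249% to 3.99% with a median of 1.5%. In windows 500 bp to the side, 22 bases gave 1.72% and 23 bases 0.369%.

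**Figure D5:**
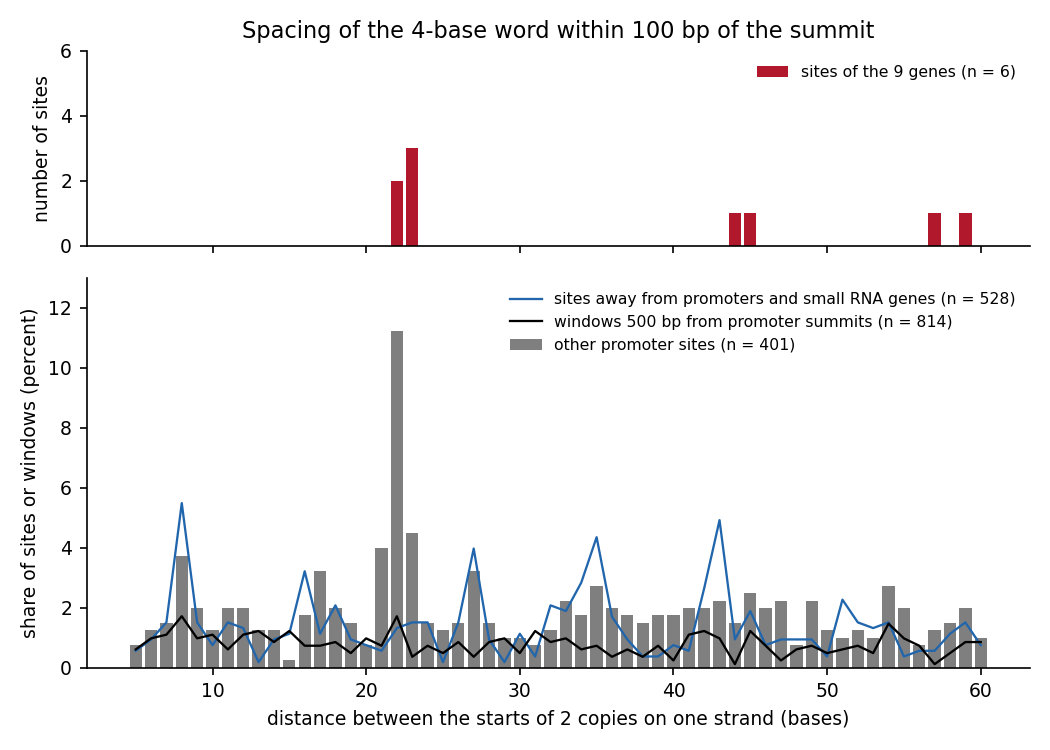
Upper panel, number of the 6 sites of the 9 genes with 2 copies of TTGC on one strand at each spacing from 5 to 60 bases within 100 bp of the summit. Lower panel, percentage of the other promoter sites (bars), of 528 sites away from promoters and small RNA genes and of 814 windows 500 bp from promoter summits (lines). The highest bar of the other promoter sites stands at 22 bases (11.2%), where the lines stand at 1.33% (sites away from promoters and small RNA genes) and 1.72% (windows to the side).

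The spacing and the gapped word overlapped in part. Of the 56 other promoter sites with TTGC 22 or 23 bases apart (14.0%), 24 also held the gapped word. Once the 6 near-identical sites with the gapped word were left out, 50 of 395 (12.7%) had the spacing. Copies were sought only around matches of the gapped word. Sites away from promoters and small RNA genes had it in 10 of 528 (1.89%), and small RNA gene sites in 3 of 331 (0.906%). The other promoter sites with the spacing had a median signal of 147, and those without it 89.5.

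The order by signal did not stop at the 9 genes. One stronger promoter site than npp-6/spd-5 is not among them: rank 6, with a signal of 153 in replicate 1 and 206 in replicate 2, and 382 in the joint list, lay 295 bp upstream of pcrg-1, the counterpart of the vertebrate parkin coregulated gene, and 689 bp upstream of E04F6.6. Its summit was 21 bp inside mrpr-1, the gene for the RNA of the ribonuclease MRP. The next site below npp-6/spd-5 was 280 bp upstream of K05C4.2, where the joint signal was 335 at npp-6/spd-5 and 331 at K05C4.2, a difference smaller than that between the replicates of either. After it came C46F11.4 (322), Y51F10.11 with spe-48 (307), K01G5.10 with tasp-1 (285) and plrg-1 (282). The gapped word was present at K05C4.2, at C46F11.4 and 2 times at Y51F10.11 with spe-48, where the matches again stood 23 bases apart. It was absent at pcrg-1 with E04F6.6, at K01G5.10 with tasp-1 and at plrg-1. So among these 6 sites 1 of the 3 in windows of both strands held it, and 2 of the 3 in the window of a single gene did.

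Most genes in the lists drawn up around the 9 genes had no site. In 7 lists of gene families, complexes and pathways, 11 of 127 listed genes outside the 9 had a site in the window. The share over all protein-coding genes was 2.99%. Each list also holds a gene of the 9, chosen for its site, so counts without it are given where others had a site. The lists were written with results of these data known and were not tested. In the nuclear pore list 4 of 28 genes had a site, or 3 of 27 without npp-6. The strongest were at the nucleoporin genes npp-6 (335), npp-18 (206) and npp-8 (157). In the centrosome and centriole list 4 of 15 did, or 3 of 14 without spd-5. The strongest were at spd-5 (335), the centriole assembly gene sas-5 (199) and the gamma-tubulin gene tbg-1 (108).

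Among tricarboxylic acid cycle genes 3 of 22 had a site, or 2 of 21 without idhg-1. The 3 were idhg-1 (491), dlst-1 (150), which encodes a subunit of the 2-oxoglutarate dehydrogenase complex, and the succinyl-CoA ligase gene sucl-1 (107). In the list of malonyl-CoA and fatty acid synthesis and transport, mlcd-1 was the one gene of 16 with a site, and in the Sec1/Munc18 family uncp-18 was the one of 6, so unc-18 itself had none. In the proteasome list 2 of 32 had one, ecps-1 (482) and the regulatory particle gene rpn-7 (156), or 1 of 31 without ecps-1. Among translation regulators 3 of 15 did, atx-2 (482), spn-4 (106) and the RNA helicase gene cgh-1 (72.6), or 2 of 14 without atx-2. The lowest joint signal at the 9 genes was 335, and the highest at the 11 listed genes outside them was 206 at npp-18. The 9 were chosen by this signal, so that order follows from the choice.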

How the data were processed

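The data were ChIP-seq peak lists of 2 biological replicates labelled tab-1, on ce11 per the submitters' processing notes. The authors deposited, for the replicates singly and jointly, ranked candidates and lists thresholded on the irreproducible discovery rate (IDR). What aligned the reads and called the peaks, and how deep the libraries were sequenced, is not given in the sources used here. The signal value of each peak is the deposited one, with no stated scale, and served only to describe, rank or filter peaks within a list. In the deposited files a higher score means a lower IDR, and the ranked lists hold the −log10 of the IDR as the authors deposited it. The summit's distance from the peak start is another deposited column.

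The authors' conservative list (1313 peaks) was the main list. Overlapping peaks (1 bp or more) on the 6 nuclear chromosomes were merged into 1266 sites, each keeping its strongest peak's signal and summit. Gene models were Ensembl release 115 and bases WBcel235, the same assembly as ce11, with all peaks inside the 6 chromosomes. Coordinates are 1-based. Words were counted on both strands within 100 bp of summits. Python 3.11.15, numpy 2.4.6 and matplotlib 3.10.9 were used, and the functions were tested on simulated data. The genes, the lists and the 12 words were chosen with earlier results of these data known. The gapped word, the B box word and the TTGC spacing were chosen after the sequences were seen. Named genes are the 9, their neighbours, the genes of the sites ranked next to them and, per list, up to 3 genes by signal. Alternatives changed the list, replicates, thresholds, windows, transcripts and words. With 1 group and no control, no test between conditions was possible, and none was run over sites.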

Additional observations from a re-analysis of the deposited data

How the results depend on the processing

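The 6 sites were found in every alternative list tried: the authors' other list, each replicate's own list and the conservative list at a global IDR of 0.001. With a promoter window of 500 bp upstream in place of 1000 bp, 5 of the 9 genes kept a site in the window, and sites in the windows of 2 or more genes numbered 1 in place of 4. The lowest rank of the 6 sites was 7, and 8 to 15 in the lists of 1 replicate, 15 being the value without replicate 1. With windows reaching 200 bp in place of 100 bp to either side, the median G and C content was 40.1% in place of 48.0%, and its excess over the flanks 1.25 points in place of 8.33. GAGAGA was at 2 of the 6 sites within 50 bp of the summit, in place of 4. A gap of 3 bases in the gapped word gave 1 site, and a gap of 5 gave 0, in place of 4. Of the listed genes outside the 9, 5 to 9 had a site in the lists of 1 replicate, in place of 11, with 5 without replicate 2. The cause of these changes was not tested. No paired analysis was possible because the samples form 1 group. Read depth is unknown, so how far it limits the lists was not tested.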
